A study of Mus musculus with 16 samples.

Results

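Levels of 9 genes of glucocorticoid and steroid hormone action were followed in subcutaneous (SAT) and visceral adipose tissue (VAT) of lean and obese mice. The 9 genes, named by symbol, were Hsd11b1, Nr3c1, Nr3c2, Fkbp5, Tsc22d3, Zbtb16, Sgk1, Esr1 and Sult1a1. Their rows were found through RefSeq identifiers, which gave 54 of the 130343 entries of the table, where an entry is 1 RefSeq transcript. The genes made up 9 of the 35556 gene symbols in the table. Wild-type male C57BL/6J mice were put on a diet at 10 weeks of age and kept on it for 12 to 14 months. The 4 obese mice ate a high-fat diet with 42% of its energy from fat and 0.2% cholesterol, and the 4 lean mice ate normal laboratory diet. Each mouse gave 1 library of inguinal SAT, with left and right depots combined, and 1 library of mesenteric VAT, so that 16 libraries fell into 4 groups of 4.

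Glucocorticoids cross the cell membrane and bind the glucocorticoid receptor, which Hsp90 and its partner proteins hold in the cytosol until the hormone arrives. The bound receptor moves to the nucleus, where it binds DNA at short palindromes and changes the transcription of its targets. Fat cells can also make active hormone from inactive 11-keto steroid through the enzyme encoded by Hsd11b1, and long exposure to glucocorticoids is known for the expansion of visceral fat.

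Total counts ranged from 1256082 to 16614407 per library, and the VAT libraries of lean mouse 1 and obese mouse 1 (2247737 counts) had the fewest. Levels are given below as CPM, the counts in every 1000000 counts of a library, with counts summed over all entries of a gene and library sizes scaled by TMM. Differences are log2 fold changes with their standard errors from edgeR's quasi-likelihood test on single entries, and an entry is said to rise or fall where its Benjamini-Hochberg adjusted p over all 13288 tested entries was below 0.05. Adipocyte markers (Adipoq, Plin1, Cidec, Lipe, Fabp4) were present in all 16 libraries, and their summed level was 10389 CPM or higher. Mesothelial markers summed to between 246 and 594 CPM in VAT and to between 0.166 and 1.41 CPM in SAT. In whole tissue, fewer cells of a type and less RNA per cell cannot be told apart.

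Of the 54 member entries, 37 had at least 1 count and 14 passed the filter on low counts. Those 14 belonged to 7 genes. Nr3c1 (15 entries, 40 counts over all 16 libraries) and Esr1 (10 entries, 36 counts) had no tested entry. How the authors treated reads that fall on several transcripts of a gene is not stated, so the few counts of a gene with many entries are not read as low expression.

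In SAT, Sgk1 was the member that rose most clearly with the high-fat diet, at about 4 times the lean level. In VAT, Fkbp5 rose 2.56-fold and Sgk1 rose 2.05-fold. By the test with each mouse as a block, the response of Sgk1 was larger in SAT and that of Fkbp5 larger in VAT. Both of these calls were lost with no block and under limma voom, and that for Fkbp5 in 9 of 16 alternatives in all. In SAT 4 of the 14 tested entries were higher in obese mice (3 of Sgk1 and 1 of Hsd11b1) and none was lower by edgeR, by DESeq2 or at an unadjusted p below 0.05, while 6.2% of all tested entries were higher and 4.85% lower. Of the 4, Hsd11b1 NM_008288 and Sgk1 NM_001161849 were over 1 CPM in 3 libraries only with the obese mice, in 4 obese and 1 lean library and in 5 obese and 0 lean libraries of both depots, so that they entered the test because they were high in obese mice. The count was therefore not read against the share of all entries, and the other 2 were the entries NM_011361 and NM_001161850 of Sgk1. The count fell to 2 without any one of lean mice 1 and 2 and obese mice 1 and 2. In VAT 4 of 14 were higher (3 of Sgk1 and that of Fkbp5) and again none was lower by either tool or at an unadjusted p below 0.05, against 6.82% and 4.09% of all tested entries. Sgk1 NM_001161849 was 1 of these 4 as well, and the other 3 passed the filter in lean libraries too. The count in VAT fell to 1 without any one of lean mice 2 and 4 and obese mice 2 and 4, to 2 without lean mouse 3, and to 1 with the 8 VAT libraries fitted alone. With counts summed per gene, 1 of 7 tested genes (Sgk1) was called in SAT and 2 of 7 (Sgk1 and Fkbp5) in VAT, where 11.6% and 12.2% of all genes were called in either direction. In all shares of genes on summed counts, an entry without a symbol stood as a gene of its own.

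**Figure D1:**
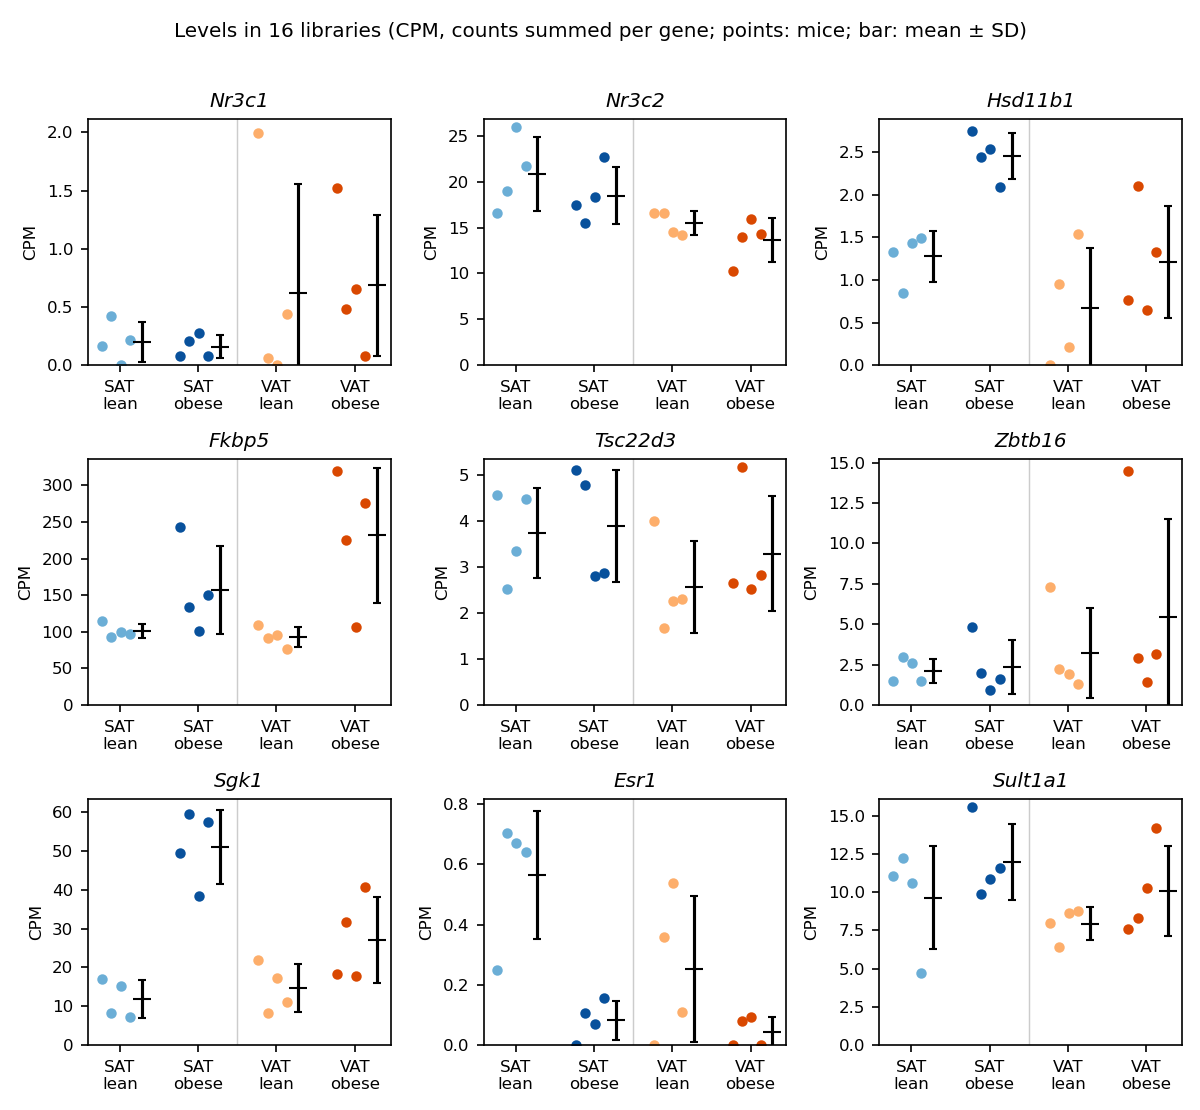
Level of each of the 9 genes in CPM (TMM-scaled, counts summed per gene) on the y axis, with 1 point per mouse and a bar for the mean ± SD of the 4 mice of a depot and diet on the x axis. The 4 obese SAT libraries lie between 38.4 and 59.5 CPM for Sgk1, above the 4 lean SAT libraries, and the Nr3c1 and Zbtb16 panels have their highest points in the VAT libraries of mouse 1 of each diet.

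Nr3c1 encodes the glucocorticoid receptor. It had between 0 and 4 counts in each SAT library and between 0 and 7 counts in each VAT library. Its highest levels, 2.00 and 1.52 CPM, came from 3 counts in the VAT library of lean mouse 1 and 4 counts in that of obese mouse 1, the libraries with the fewest counts. With no filter on low counts, 0 of its 6 entries with counts were called by edgeR in any of the 5 comparisons, and 1 had an unadjusted p below 0.05, in the diet response in VAT. Summed over the gene, VAT was above SAT in 4 of 4 obese mice, by 0.10 to 4.32 on the log2 scale of CPM, and in lean mice VAT was higher in 2, lower in 1 and at 0 counts in both depots in 1. These levels rest on 0 to 7 counts per library and, with the treatment of reads shared by the 15 entries not stated, no difference of the receptor was read from them.

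Nr3c2 encodes the mineralocorticoid receptor, which also binds glucocorticoids, and 97.4% of its 2755 counts were in 1 entry (NM_001083906). SAT levels were 16.6, 19.0, 26.0 and 21.7 CPM in lean mice and 17.5, 15.5, 18.3 and 22.7 CPM in obese mice. VAT levels were 16.6, 16.6, 14.5 and 14.2 CPM in lean mice and 10.3, 13.9, 15.95 and 14.3 CPM in obese mice. The diets overlapped in both depots, and the diet differences of -0.18 ± 0.17 in SAT (adjusted p = 0.546) and -0.07 ± 0.18 in VAT (adjusted p = 0.875) did not pass. Their 95% intervals ran from -0.52 to 0.15 and from -0.42 to 0.28. VAT was lower than SAT in 3 of 4 lean mice and in 4 of 4 obese mice, with log2 differences of -0.50 ± 0.18 (adjusted p = 0.0630) and -0.38 ± 0.17 (adjusted p = 0.106). The difference in lean mice passed without the VAT libraries of lean and obese mouse 1, at -0.59 (adjusted p = 0.0410).

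Esr1 encodes estrogen receptor alpha. Lean SAT libraries held 3, 5, 7 and 3 counts and obese SAT libraries 0, 1, 1 and 2, although total counts were higher in obese SAT. In CPM the lean libraries lay between 0.249 and 0.703 and the obese ones between 0 and 0.155. The groups did not overlap, which was so in this direction for 7.82% of the 12185 genes tested on summed counts. Esr1 did not pass the filter. With no filter on low counts, 0 of its 5 entries with counts were called in SAT by edgeR (lowest adjusted p = 0.317), and 1 had an unadjusted p below 0.05. In VAT the counts were 0, 6, 5 and 1 in lean and 0, 1, 1 and 0 in obese mice, and the groups overlapped.

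Hsd11b1 encodes 11-beta-hydroxysteroid dehydrogenase type 1, the reductase that regenerates active glucocorticoid inside the cell. SAT held 1.33, 0.843, 1.43 and 1.49 CPM in lean mice and 2.74, 2.44, 2.53 and 2.09 CPM in obese mice. The lowest obese SAT library thus lay above the highest lean one. All obese libraries above all lean ones was seen in SAT for 9.52% of tested genes. Behind these levels stood 6 to 16 counts per lean library and 23 to 37 per obese library.

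Of the entries of Hsd11b1, 1 passed the test in SAT. NM_008288 had 5, 3, 0 and 5 counts in lean SAT and 19, 14, 19 and 18 in obese SAT, a log2 difference of 1.77 ± 0.57 (adjusted p = 0.0483). The other tested entry, XM_030249832, had a difference of 0.06 ± 0.63 (adjusted p = 0.975). Another entry, XM_006497228, had 0 counts in each lean SAT library and 3, 3, 1 and 1 counts in obese SAT, and was under the filter and not tested. With counts summed over the gene the difference was 0.94 ± 0.42 and did not pass (adjusted p = 0.159). The call for NM_008288 was also lost with no filter on low counts, with the 8 SAT libraries fitted alone and without any one of lean mice 1, 2 and 3 or of the 4 obese mice, where the log2 difference was between 1.27 and 1.80.

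In VAT, Hsd11b1 was at 0, 0.953, 0.215 and 1.54 CPM in lean mice and at 0.761, 2.10, 0.653 and 1.33 CPM in obese mice, with overlap. The 0 counts in the VAT library of lean mouse 1 allow up to 2.39 CPM before TMM scaling, for counting error only. NM_008288 was lower in VAT than in SAT of obese mice by a log2 difference of -1.64 ± 0.60 (adjusted p = 0.0446), and its obese VAT libraries, with 2 to 7 counts, all lay below the obese SAT libraries in CPM. Summed over the gene, VAT was lower in 4 of 4 obese mice, but the difference of -0.99 ± 0.45 did not pass (adjusted p = 0.101). The call for the entry was also lost under DESeq2, without lean mouse 2 and without any one of the 4 obese mice, where the difference was between -1.81 and -1.47.

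Sult1a1 encodes a phenol sulfotransferase that adds sulfate to phenols, estrogens among them. SAT levels were 11.1, 12.2, 10.6 and 4.69 CPM in lean mice and 15.6, 9.87, 10.9 and 11.6 CPM in obese mice. VAT levels were 7.98, 6.43, 8.61 and 8.78 CPM in lean mice and 7.61, 8.30, 10.3 and 14.2 CPM in obese mice. Lean and obese libraries overlapped in both depots. Of the entries, XM_017322084 came nearest to the limit in VAT, at 0.88 ± 0.29 (adjusted p = 0.0541), and passed it under DESeq2 (0.86, adjusted p = 0.0434), with legacy=FALSE (0.93, adjusted p = 0.0297), without obese mouse 1 and without the VAT libraries of lean and obese mouse 1 (1.00, adjusted p = 0.0350). XM_006507538 differed by -0.02 ± 0.30 in VAT (adjusted p = 0.980). Summed over the gene, the diet differences were 0.28 ± 0.24 in SAT and 0.39 ± 0.25 in VAT, and neither passed.

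Sgk1 encodes serum- and glucocorticoid-regulated kinase 1, a kinase that keeps ion channels and transporters at the cell surface and is a textbook target of both corticosteroid receptors. The gene lies on the plus strand at chr10:21758083-21875802 of GRCm39 (GENCODE), and RefSeq gives it 6 promoter windows from 250 bases before to 50 bases after a start. The consensus palindrome to which glucocorticoid receptor dimers bind, AGAACA and its reverse complement TGTTCT with any 3 bases between them, was searched on both strands in 32851 windows of this length. It was found in 3 of them (0.00913%), and 1 was a start of Sgk1. The match runs from 189 to 175 bases before the start of transcript Sgk1-202, at chr10:21869600-21869614, 951 bases before the start of Sgk1-201. It lies in an intron of 5 of the 23 GENCODE transcripts of Sgk1 and in an exon of none. Below are the 250 bases before both starts and before the start of Fkbp5, each 5′ to 3′ on the strand of its gene and taken from RefSeq's table (GRCm38.p6), with positions from their single exact match in GRCm39. They are shown because Sgk1 and Fkbp5 gave the clearest responses. Capitals mark the palindrome, and lower case throughout means that these letters do not hold it.
Sgk1, before Sgk1-202, chr10:21869539-21869788, plus strand: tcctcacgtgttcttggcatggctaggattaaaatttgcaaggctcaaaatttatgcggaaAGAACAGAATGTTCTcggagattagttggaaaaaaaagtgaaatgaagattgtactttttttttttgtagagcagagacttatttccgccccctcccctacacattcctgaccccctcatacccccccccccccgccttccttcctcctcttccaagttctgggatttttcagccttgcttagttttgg
Sgk1, before Sgk1-201, chr10:21870315-21870564, plus strand: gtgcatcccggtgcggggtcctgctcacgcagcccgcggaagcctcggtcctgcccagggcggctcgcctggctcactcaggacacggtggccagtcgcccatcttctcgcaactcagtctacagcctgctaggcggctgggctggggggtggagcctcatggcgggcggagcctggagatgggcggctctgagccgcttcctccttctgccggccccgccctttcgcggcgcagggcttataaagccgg
Fkbp5, chr17:28705124-28705373, minus strand: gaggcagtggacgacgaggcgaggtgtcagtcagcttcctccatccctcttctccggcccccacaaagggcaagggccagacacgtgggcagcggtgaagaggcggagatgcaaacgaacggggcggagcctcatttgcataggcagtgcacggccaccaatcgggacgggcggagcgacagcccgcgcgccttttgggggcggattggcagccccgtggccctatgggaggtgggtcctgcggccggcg

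A single arm of the palindrome, AGAACA or TGTTCT, stood in 19.0% of all windows and in 5 of the 15 windows of the members. These 15 windows belonged to 7 genes, since Nr3c1 was left out and Zbtb16 was without a window. The windows with an arm were 3 of Sgk1, 1 of Sult1a1 and 1 of Tsc22d3, and matches inside the full palindrome were counted as arms too. The consensus for estrogen receptors, GGTCA and TGACC with any 3 bases between them, stood in 0.07% of all windows and in none of the members. The table of counts does not say which start an entry of Sgk1 uses, so the match is a description of the sequence and not a site of binding.

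Sgk1 levels in SAT were 17.0, 8.29, 15.1 and 7.25 CPM in lean mice and 49.4, 59.5, 38.4 and 57.4 CPM in obese mice. Every obese library stood above every lean one, with the nearest pair at 38.4 and 17.0 CPM. The means were 11.9 ± 4.88 and 51.2 ± 9.56 CPM (SD, n = 4). The entry with 81.8% of the counts, NM_011361, rose by 2.12 ± 0.30 on the log2 scale (adjusted p = 7.4e-05), and the sum over the gene rose 4.16-fold (2.06 ± 0.30, adjusted p = 0.00011). NM_001161850 rose by 1.64 ± 0.36 (adjusted p = 0.0044) and NM_001161849 by 2.63 ± 0.73 (adjusted p = 0.0223). The calls for NM_011361 and NM_001161850 held under all 17 alternatives, while that for NM_001161849, with 0 to 4 counts per lean SAT library, was lost in 5 of 17 (limma voom, and without lean mouse 1, lean mouse 2, obese mouse 1 or obese mouse 2), at log2 differences of 2.26 or more without a mouse.

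In VAT, Sgk1 levels were 22.0, 8.28, 17.3 and 11.1 CPM in lean mice and 18.3, 31.6, 17.8 and 40.8 CPM in obese mice. Obese mice 2 and 4 lay above every lean mouse, and obese mice 1 and 3 lay within the lean range. NM_011361 rose by 1.03 ± 0.31 (adjusted p = 0.0349), NM_001161850 by 1.28 ± 0.40 (adjusted p = 0.0435) and NM_001161849 by 2.43 ± 0.70 (adjusted p = 0.0249). These calls turned on single mice. That for NM_011361 was lost without lean mouse 2, lean mouse 4, obese mouse 2 or obese mouse 4, over which the log2 difference ranged from 0.71 upwards, and with the 8 VAT libraries fitted alone, and its adjusted p reached 0.224. Without the shallow VAT libraries of lean and obese mouse 1 the difference was 1.28 (adjusted p = 0.0145). The calls for NM_001161849 and NM_001161850 held in 10 of 16 and 9 of 17 alternatives, with lowest log2 differences of 2.07 and 0.80 where 1 mouse was left out.

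**Figure D2:**
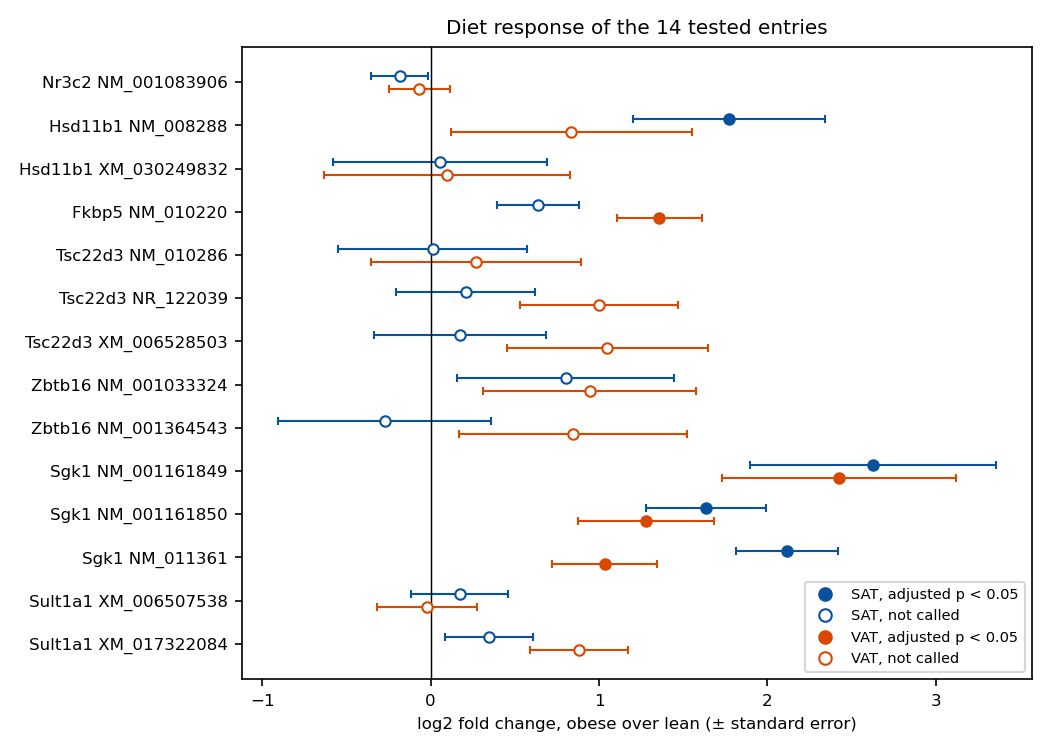
Log2 fold change of obese over lean mice ± standard error on the x axis for each of the 14 tested member entries on the y axis, in SAT (blue) and VAT (orange), with filled points for an adjusted p below 0.05. All 3 entries of Sgk1 are filled in both depots, Fkbp5 in VAT and Hsd11b1 NM_008288 in SAT.

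Fkbp5 encodes a co-chaperone of Hsp90 that lowers the affinity of the glucocorticoid receptor for its hormone and is itself induced by the receptor. It is the only member with a single entry (NM_010220, chr17:28618058-28737521, minus strand, GRCm39), and its 22801 counts were the most of any member. VAT levels were 109.8, 92.0, 95.1 and 76.4 CPM in lean mice and 319, 225, 107 and 275 CPM in obese mice. Obese mice 1, 2 and 4 lay above every lean mouse, and obese mouse 3 lay within the lean range. The rise was 1.36 ± 0.25 on the log2 scale (adjusted p = 0.00089) and held under all 17 alternatives, with values from 1.14 to 1.60. Whether the groups overlap depended on the scaling, since obese mouse 3 was above lean mouse 1 (109.1 against 105.2 CPM) with TMM factors from single entries.

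In SAT, Fkbp5 levels were 115, 93.0, 99.9 and 97.4 CPM in lean mice and 243, 134, 102 and 150.1 CPM in obese mice. Obese mice 1, 2 and 4 lay above every lean mouse and obese mouse 3 lay within the lean range. The difference of 0.64 ± 0.24 did not pass (adjusted p = 0.0988, 95% interval 0.16 to 1.12). It passed in 3 of the 17 alternatives, with the 8 SAT libraries fitted alone (0.62, adjusted p = 0.0492), with no filter on low counts (0.66, adjusted p = 0.0015) and without obese mouse 3 (0.80, adjusted p = 0.00737). In both depots obese mouse 1 had the highest and obese mouse 3 the lowest level among obese mice.

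Tsc22d3 encodes the glucocorticoid-induced leucine zipper protein, which holds back inflammatory transcription factors. Its 527 counts were spread over 8 entries. SAT held 4.57, 2.53, 3.35 and 4.48 CPM in lean mice and 5.11, 4.77, 2.81 and 2.87 CPM in obese mice, and VAT held 3.99, 1.67, 2.26 and 2.30 CPM and 2.66, 5.16, 2.52 and 2.82 CPM. Lean and obese libraries overlapped in both depots, and none of the 3 tested entries passed in any of the 5 comparisons. Summed over the gene, the diet difference was 0.05 ± 0.30 in SAT (adjusted p = 0.944, 95% interval -0.53 to 0.64) and 0.61 ± 0.34 in VAT (adjusted p = 0.278, 95% interval -0.05 to 1.27).

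Zbtb16 encodes a zinc finger transcription factor that glucocorticoids induce in many tissues. SAT held 1.496, 2.95, 2.58 and 1.49 CPM in lean mice and 4.80, 2.02, 0.959 and 1.63 CPM in obese mice. VAT held 7.32, 2.26, 1.94 and 1.32 CPM in lean mice and 14.5, 2.90, 1.399 and 3.15 CPM in obese mice. The highest VAT value of each diet was that of mouse 1, whose library had the fewest counts of its group, with 11 counts of Zbtb16 in the lean and 38 in the obese mouse. Neither entry passed in any comparison, and summed over the gene the diet difference in VAT was 0.89 ± 0.63 (adjusted p = 0.423). In obese mice VAT was above SAT in 4 of 4 mice, at 0.96 ± 0.37 (adjusted p = 0.0522).

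The difference of the diet response between depots was tested with each mouse as a block. Both Fkbp5 and Sgk1 differed, in opposite directions, and 2.17% of all tested entries did. The response of Fkbp5 was larger in VAT by 0.69 ± 0.18 (adjusted p = 0.0427) and that of Sgk1 NM_011361 was smaller in VAT by a log2 difference of -1.34 ± 0.26 (adjusted p = 0.0049). With counts summed per gene, both were called among 2.47% of all genes, and the differences were 0.65 ± 0.17 (adjusted p = 0.0493) and -1.23 ± 0.23 (adjusted p = 0.0053). The call for Sgk1 was lost with no block for the mouse (-1.09, adjusted p = 0.252) and under limma voom, and held in the other 14 of 16 alternatives. The call for Fkbp5 was lost in 9 of 16, among them no block for the mouse (0.72, adjusted p = 0.367) and each fit without lean mouse 2, 3 or 4 or obese mouse 1, 2 or 4, where the difference lay between 0.56 and 0.73. For the 2 other entries of Sgk1 the differences were -0.14 ± 0.93 and -0.56 ± 0.48, and neither passed.

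**Figure D3:**
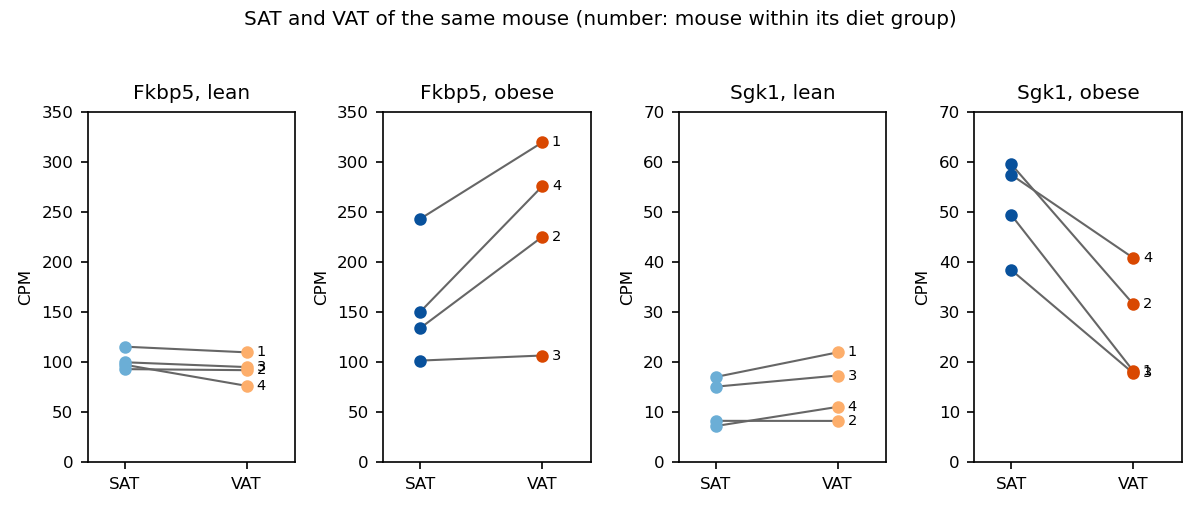
Levels of Fkbp5 and Sgk1 in CPM (TMM-scaled, counts summed per gene; y axis) in SAT and VAT (x axis), with a line joining the libraries of 1 mouse and numbers naming the mouse within its diet group. In obese mice every line rises for Fkbp5 and falls for Sgk1, while in lean mice every line falls for Fkbp5.

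Within obese mice, VAT held more Fkbp5 than SAT in 4 of 4 mice and less Sgk1 in 4 of 4 mice. Fkbp5 was higher in VAT by 0.55 ± 0.12 (adjusted p = 0.0016) and Sgk1 NM_011361 was lower by a log2 difference of -1.03 ± 0.17 (adjusted p = 6.4e-05). With Hsd11b1 NM_008288, 3 of 14 member entries differed between depots in obese mice, 1 higher and 2 lower, while 15.9% of all tested entries were higher and 13.5% lower. NM_008288 was over 1 CPM in 5 SAT and 0 VAT libraries and so entered the test through SAT, where it was high. With counts summed per gene both were called, 2 of 7 genes against 31.3% of all genes. Without the block for the mouse Fkbp5 did not pass (0.58, adjusted p = 0.0795), nor did it under limma voom, and the call for Sgk1 held in all 16 alternatives.

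Within lean mice, Fkbp5 was lower in VAT in 4 of 4 mice (-0.13 ± 0.13, adjusted p = 0.560) and Sgk1 was higher in 3 of 4 mice (NM_011361, 0.31 ± 0.19, adjusted p = 0.320). By edgeR none of the 14 member entries passed in lean mice, where 14.8% of all tested entries did. At an unadjusted p below 0.05 there were 2, of Nr3c2 and of Sult1a1 (XM_017322084, -0.79 ± 0.29, adjusted p = 0.0754), and DESeq2 called 0. With counts summed per gene 0 of 7 genes passed, against 15.9% of all genes. In order of group means, Fkbp5 ran from VAT of obese mice (232 ± 91.7 CPM) over SAT of obese mice (157 ± 60.6) and SAT of lean mice (101 ± 9.75) to VAT of lean mice (93.3 ± 13.7), and of these neighbours the first pair differed by the test and the other pairs did not pass it. Sgk1 ran from SAT of obese mice over VAT of obese mice (27.1 ± 11.1 CPM) and VAT of lean mice (14.7 ± 6.16) to SAT of lean mice, and of these neighbours its lean depots, the last pair, did not pass the test.

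Genes known as targets of the glucocorticoid receptor were taken as a list of 22, of which 18 were tested with 19 entries. This list was chosen with earlier results of these data known, so its counts describe it and are no independent support for a response. In SAT of obese mice 7 entries were higher, 2 were lower and 10 did not pass, with a median log2 difference of 0.74 against 0.01 over all entries, of which 6.2% were higher and 4.85% lower. In VAT 5 were higher, none was lower (none by DESeq2 or at an unadjusted p below 0.05 by edgeR either) and 14 did not pass, while DESeq2 called 3 higher and limma voom 7, with a median of 0.42 against 0.02 over all entries, of which 6.82% were higher and 4.09% lower. The 5 that rose in VAT (Ddit4, Mt1, Mt2, Cebpd and Nfkbia) rose in SAT as well. In the difference of the diet response between depots 0 of the 19 passed by edgeR, DESeq2 or limma voom, and 4 had an unadjusted p below 0.05 by edgeR.

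Ddit4, which encodes an inhibitor of mTORC1 signaling that also answers to hypoxia and energy stress, was at 115, 34.2, 28.01 and 60.8 CPM in lean SAT and at 234, 311, 184 and 282 CPM in obese SAT. In VAT it was at 58.6, 23.2, 32.4 and 31.6 CPM in lean mice and at 146, 171, 113 and 226 CPM in obese mice. The diets did not overlap in either depot. The log2 differences were 2.09 ± 0.33 (adjusted p = 0.000197) and 2.32 ± 0.34 (adjusted p = 9.9e-05).

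The metallothioneins Mt1 and Mt2 bind zinc and copper and answer to metals as well as to glucocorticoids. Mt2 was at 32.2, 16.3, 20.3 and 31.8 CPM in lean SAT and at 79.8, 73.4, 22.3 and 58.1 CPM in obese SAT, where obese mouse 3 lay within the lean range. In VAT it was at 64.5, 29.9, 37.2 and 30.7 CPM in lean and 184, 123, 78.4 and 92.8 CPM in obese mice, with no overlap. Mt2 rose by 1.22 ± 0.32 in SAT (adjusted p = 0.0148) and by 1.66 ± 0.33 in VAT (adjusted p = 0.0015), and Mt1 by 1.95 ± 0.53 (adjusted p = 0.0201) and 2.10 ± 0.57 (adjusted p = 0.0176). In SAT the calls for both were lost without any one of lean mice 2 and 3 and obese mice 1 and 2, at log2 differences of 1.02 or more, and in VAT that for Mt1 was lost under DESeq2 and without lean mouse 2, lean mouse 4, obese mouse 1 or obese mouse 2.

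Cebpd, a transcription factor of early fat cell differentiation and of inflammation, rose by 1.41 ± 0.43 in SAT (adjusted p = 0.0365) and by 1.65 ± 0.43 in VAT (adjusted p = 0.0144). Nfkbia, the inhibitor that holds NF-kappa-B in the cytosol, rose by 0.74 ± 0.20 in SAT (adjusted p = 0.0202) and by 1.07 ± 0.21 in VAT (adjusted p = 0.0014). The call for Cebpd in VAT was lost under DESeq2 and without lean mouse 2, lean mouse 4 or obese mouse 1. Both genes also stand among those that inflammatory signals induce. Irs2, a docking protein of the insulin receptor, and Pdk4, which switches off pyruvate dehydrogenase, rose in SAT by 0.85 ± 0.15 (adjusted p = 0.00065) and 0.93 ± 0.21 (adjusted p = 0.0052). Klf15 and Glul fell in SAT. Klf15, a transcription factor of amino acid and lipid metabolism, fell by 1.61 ± 0.40 on the log2 scale (adjusted p = 0.0106), with levels summed over its entries between 0.616 and 5.12 CPM in SAT, and the call was lost without obese mouse 3 (-1.40, adjusted p = 0.0519). Glul, which encodes glutamine synthetase, fell by 0.40 ± 0.13 (adjusted p = 0.0421). The calls for Cebpd, Nfkbia and Glul in SAT were not followed through the alternatives.

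**Figure D4:**
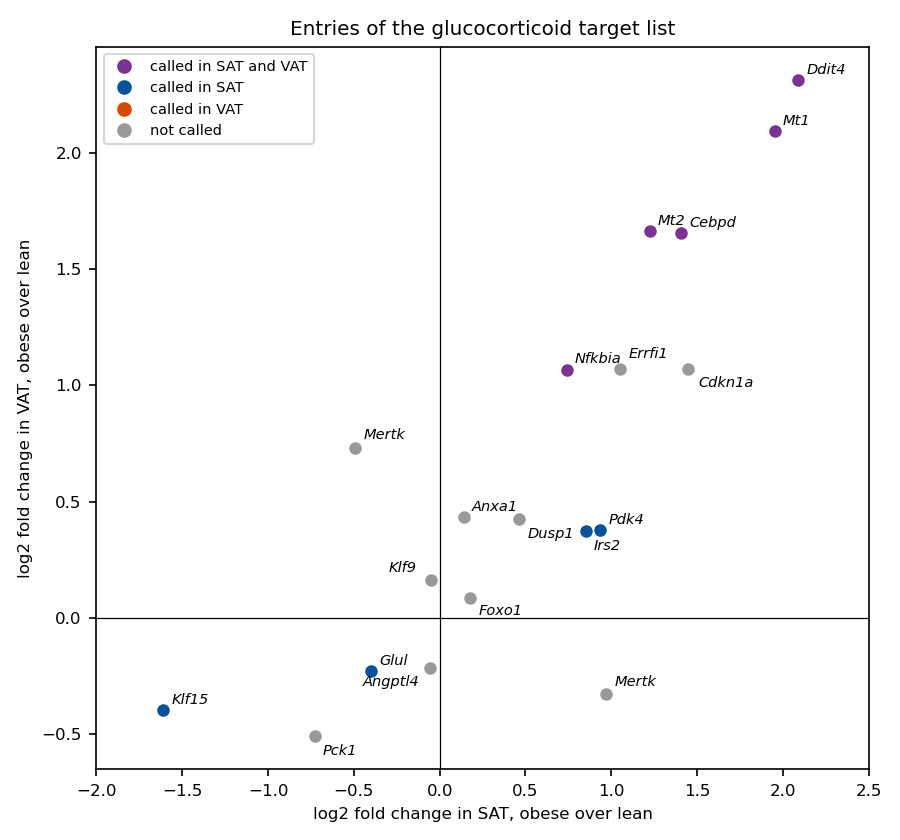
Log2 fold change of obese over lean mice in SAT (x axis) and VAT (y axis) for the 19 tested entries of the glucocorticoid target list, colored by the depots in which the adjusted p was below 0.05. The 5 entries called in both depots lie in the upper right, with Ddit4 and Mt1 furthest out, and Klf15 lies at -1.61 in SAT.

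Between depots, 5 entries of this list were higher and 3 lower in VAT of lean mice, and 6 were higher and 4 lower in VAT of obese mice. Under limma voom there were 1 and 2 in lean mice and 6 and 2 in obese mice. Of all 13288 entries, 8.0% were higher and 6.84% lower in lean mice, and 15.9% and 13.5% in obese mice. Pck1, which feeds glycerol synthesis in fat, was higher in VAT by 0.82 ± 0.14 in lean mice (adjusted p = 0.00016) and by 0.96 ± 0.14 in obese mice (adjusted p = 1.1e-05). Mt2 was higher in VAT in both diets, by 0.67 ± 0.18 (adjusted p = 0.0129) and 1.13 ± 0.17 (adjusted p = 2.1e-05). Ddit4 was lower in VAT in both diets, with log2 differences of -0.56 ± 0.16 (adjusted p = 0.0169) and -0.61 ± 0.15 (adjusted p = 0.0026). In lean mice the calls for Mt2 and Ddit4 were each lost in 6 of 16 alternatives. These were limma voom, no block for the mouse, the fit without the VAT libraries of lean and obese mouse 1 (0.57, adjusted p = 0.0862, for Mt2 and -0.43, adjusted p = 0.115, for Ddit4), and the fits without lean mouse 1, 2 or 3 for Mt2 and without lean mouse 1, 2 or 4 for Ddit4. In obese mice the call for Ddit4 was lost under limma voom (adjusted p = 0.0596) and with no block for the mouse (adjusted p = 0.168). That for Pck1 in lean mice was lost with no block (adjusted p = 0.0611).

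The chaperones that hold steroid receptors and the coregulators that receptors recruit were taken as a list of 12, of which 7 were tested with 1 entry each. Fkbp4, the co-chaperone that competes with Fkbp5 for Hsp90 and raises hormone binding, fell in SAT of obese mice by 0.31 ± 0.10 on the log2 scale (adjusted p = 0.0426). Its levels were 128, 117, 116 and 118 CPM in lean SAT and 103, 94.4, 93.0 and 92.4 CPM in obese SAT, with no overlap. The call held in 9 of 17 alternatives, and was lost with no filter on low counts and in each fit without 1 mouse except that without obese mouse 1. In VAT, Fkbp4 was at 140.3 to 163 CPM in lean and 128 to 144 CPM in obese mice and did not pass. In obese mice it was higher in VAT than in SAT by 0.55 ± 0.11 (adjusted p = 0.00034), as was Hsp90ab1 by 0.45 ± 0.10 (adjusted p = 0.0014). Hsp90ab1 was higher in VAT of lean mice too, by 0.42 to 0.46 over 16 alternatives, and was called in all of them. Of the 7 entries, 2 were higher in VAT of lean mice and 3 in VAT of obese mice, and 0 were lower. Over all tested entries 8.0% and 15.9% were higher. The tested entry of the corepressor Ncor1 (NM_177229) was lower in obese VAT, with a log2 difference of -0.54 ± 0.17 (adjusted p = 0.0472), and this call held in 9 of 17 alternatives.

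Enzymes and carriers of steroid metabolism other than the members were 23 genes, of which 13 were tested with 17 entries. In SAT 1 entry was higher and 1 lower in obese mice, against 6.2% higher and 4.85% lower over all entries. In VAT none was higher and 1 lower, against 6.82% and 4.09%. None was higher in VAT by DESeq2 either. At an unadjusted p below 0.05, 0 were higher in VAT by edgeR and DESeq2 and 1 under limma voom. Hsd17b12, a reductase of long-chain fatty acid synthesis and of estrone, was at 397, 402, 500.1 and 438 CPM in lean SAT and at 699.8, 750.1, 696 and 878 CPM in obese SAT. In VAT it was at 429, 516, 571 and 496 CPM in lean mice and at 450.4, 454, 439 and 419 CPM in obese mice. It rose in SAT by 0.81 ± 0.11 (adjusted p = 6.6e-05), with no overlap, and its response differed between depots by -0.95 ± 0.14 (VAT minus SAT, adjusted p = 0.00068). Hsd17b10, a mitochondrial dehydrogenase of steroids and branched-chain fatty acids, fell in SAT by 0.57 ± 0.14 on the log2 scale (adjusted p = 0.0113), a call lost without lean mouse 2 (adjusted p = 0.0520).

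H6pd supplies the reducing power that Hsd11b1 uses inside the endoplasmic reticulum. VAT held 17.97, 19.4, 20.5 and 13.9 CPM of it in lean mice and 15.6, 16.3, 9.14 and 4.15 CPM in obese mice, with overlap. The entry XM_006538462 was lower in obese VAT by a log2 difference of -0.93 ± 0.30 (adjusted p = 0.0479), a call that held in 8 of 17 alternatives and was lost with counts summed over the gene (-0.72, adjusted p = 0.128). The 3 other tested entries, NM_001291004, NM_173371 and XM_006538458, had log2 differences of -0.92, -0.06 and 0.42 in VAT and did not pass. In obese mice XM_006538462 differed between VAT and SAT by -0.97 ± 0.21 (adjusted p = 0.0010), which held in all 16. Hsd11b2, which inactivates glucocorticoids, was at 0 to 2.35 CPM and Cyp19a1, the aromatase that makes estrogens, was listed at 0 in all 16 libraries. Akr1c18, which inactivates progesterone, was far lower in VAT, at 3.73 to 14.1 CPM in SAT and at 0 to 0.42 CPM in VAT, so that it passed the filter through SAT, in 8 libraries. Its depot differences were -5.20 ± 0.45 in lean mice (adjusted p = 1.4e-08) and -6.57 ± 0.50 in obese mice (adjusted p = 1.2e-09). Star, which carries cholesterol into mitochondria, was higher in VAT in lean (0.90 ± 0.21, adjusted p = 0.0035) and in obese mice (1.28 ± 0.20, adjusted p = 3.7e-05).

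**Figure D5:**
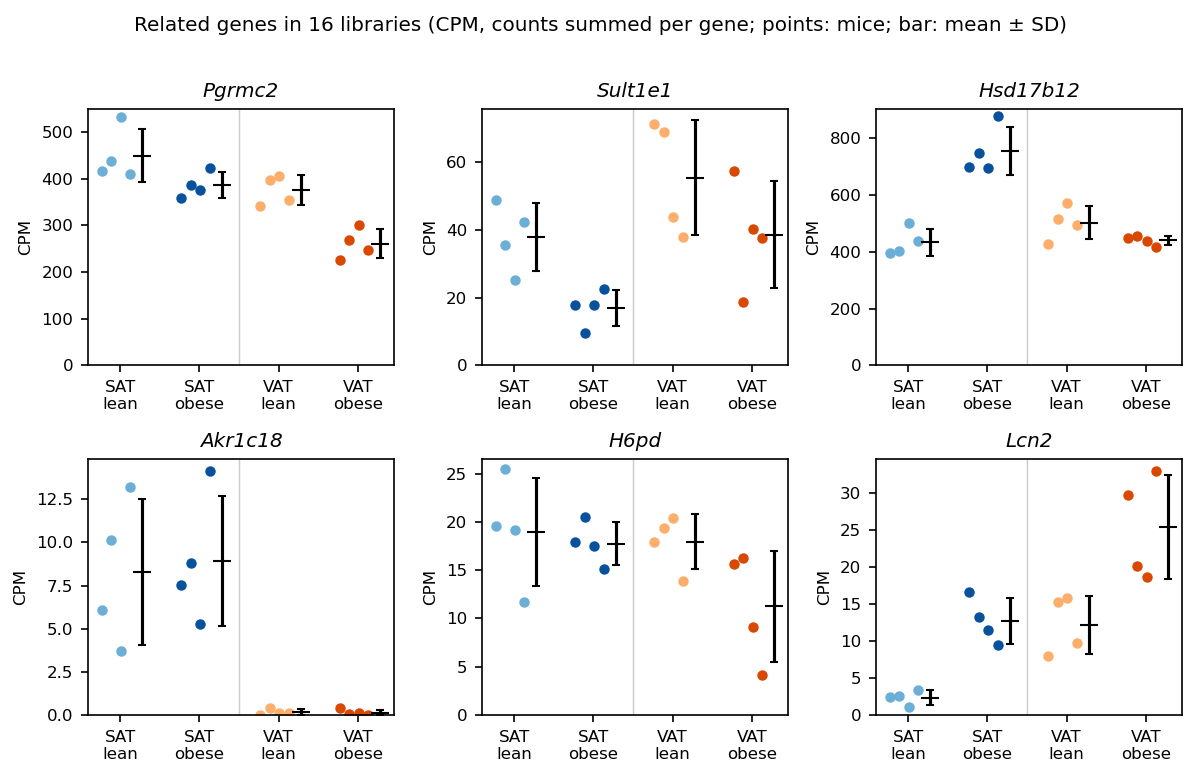
Levels of 6 related genes in CPM (TMM-scaled, counts summed per gene; y axis) in the 4 groups of a depot and diet (x axis), with 1 point per mouse and a bar for the mean ± SD. Pgrmc2 is lower in obese than in lean VAT without overlap, Hsd17b12 in obese SAT lies above lean SAT, and Akr1c18 is at 0.42 CPM or lower in VAT.

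Of 7 other cytosolic sulfotransferases 1 was tested, Sult1e1, which sulfates and so inactivates estrogens. It was at 48.9, 35.4, 25.2 and 42.2 CPM in lean SAT and at 17.7, 9.65, 17.9 and 22.6 CPM in obese SAT, with no overlap, and fell by 1.15 ± 0.28 on the log2 scale (adjusted p = 0.0104). In VAT it was at 71.2, 68.9, 43.8 and 37.8 CPM in lean and 57.4, 18.8, 40.3 and 37.6 CPM in obese mice, with overlap, and did not pass. VAT was above SAT in both diets, by 0.54 ± 0.17 in lean (adjusted p = 0.0354) and 1.16 ± 0.17 in obese mice (adjusted p = 2.2e-05). The call in lean mice was lost in 6 of 16 alternatives, among them that without the VAT libraries of lean and obese mouse 1 (0.55, adjusted p = 0.0590).

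Of 6 targets of the mineralocorticoid receptor 1 was tested, Lcn2, which encodes lipocalin 2, a secreted protein that inflammation induces too. It rose from 2.41, 2.53, 1.05 and 3.41 CPM in lean SAT to 16.6, 13.3, 11.4 and 9.38 CPM in obese SAT, by 2.51 ± 0.30 (adjusted p = 1.3e-05). In VAT it was at 7.98, 15.2, 15.7 and 9.76 CPM in lean and at 29.7, 20.2, 18.7 and 32.9 CPM in obese mice, a rise of 1.01 ± 0.26 (adjusted p = 0.0123). Lean and obese libraries did not overlap in either depot. The call in VAT was lost without lean mouse 4, without obese mouse 4 and without the VAT libraries of lean and obese mouse 1 (0.84, adjusted p = 0.0539).

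Pgrmc2, a heme-binding membrane protein of the progesterone receptor membrane component family, was at 342, 399, 407 and 355 CPM in VAT of lean mice and at 226, 268, 301 and 248 CPM in VAT of obese mice. The diets did not overlap in VAT, and Pgrmc2 fell there by 0.48 ± 0.12 on the log2 scale (adjusted p = 0.0084). In SAT it was at 410.2 to 534 CPM in lean mice and at 358 to 424 CPM in obese mice, with overlap, and did not pass. In obese mice it was lower in VAT than in SAT, with a log2 difference of -0.54 ± 0.10 (adjusted p = 0.00035).

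Markers of some cell types moved with the diet in the same libraries, and those of others did not. By edgeR, 0 of 5 progenitor and stroma, 0 of 5 endothelial and 0 of 6 mesothelial entries were called in either depot. In SAT, 0 of 4 B cell and 0 of 3 T cell entries were called. Summed macrophage markers (Adgre1, Cd68, Csf1r, Mrc1, Cd14, Itgam) were at 594 to 769 CPM in lean and 982 to 1403 CPM in obese SAT, and at 961 to 1093 CPM in lean and 1733 to 2270.0 CPM in obese VAT. Of the 5 tested macrophage entries 3 were higher in obese SAT and 4 in obese VAT, against 6.2% and 6.82% of all tested entries. Summed adipocyte markers were at 30844 to 44135 CPM in lean and 23596 to 38518 CPM in obese SAT, and at 18209 to 30863 CPM in lean and 10389 to 21512 CPM in obese VAT, with 0 and 6 of 12 entries lower, against 4.85% and 4.09% of all tested entries. Summed B cell markers were at 29.3 to 230.2 CPM in lean and 172 to 309 CPM in obese VAT, and T cell markers at 9.58 to 15.01 CPM in lean and 22.8 to 47.5 CPM in obese VAT, while B cell markers did not exceed 8.08 CPM and T cell markers 9.77 CPM in SAT. None of these macrophage and adipocyte markers was at 0 over all libraries. Cyp11b2 of the adrenal cortex markers was listed at 0 in all libraries, and so were Pecam1 of the endothelial, Tnnt3 of the skeletal muscle and Krt5 of the keratinocyte markers, so that a gene listed at 0 in this table, Cyp19a1 among them, was not read as absent. The part of cell type makeup in the responses of Sgk1, Fkbp5 and the genes listed above was not tested.

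By Pearson correlation of log2(CPM + 0.5) over the 16 libraries, which share depth, diet and depot, the pattern of Sgk1 was most like those of S1pr1 (r = 0.93), Tmem252 (0.92) and Dync1li1 (0.92). That of Fkbp5 was most like those of Asf1b (r = 0.87), Fcgr4 (0.87) and Foxm1 (0.87), and that of Nr3c2 like those of Ptdss1 (0.91), Sap30bp (0.91) and Gatc (0.89). Within groups, after the group means were taken away, r was between 0.69 and 0.78 for the 3 genes nearest to Sgk1, between 0.65 and 0.68 for Fkbp5 and between 0.73 and 0.85 for Nr3c2. Nearest to Hsd11b1 were Tbrg1 (r = 0.89), Brip1os (0.89) and Gm39393 (0.88), to Tsc22d3 Zc3h12a (0.84), Phlda3 (0.84) and Gm15418 (0.82), to Zbtb16 Ado (0.85), Txndc5 (0.85) and Gm35574 (0.84), and to Sult1a1 Angpt2 (0.81), Ugcg (0.79) and Sparcl1 (0.79). Among the tested members themselves, the pair most alike was Fkbp5 and Zbtb16 (r = 0.63, within groups 0.76), and Fkbp5 and Sgk1 had r = 0.56 (within groups 0.38).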

How the data were processed

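RNA of inguinal SAT and mesenteric VAT from 8 mice was sequenced from poly(A) libraries. The authors trimmed the reads with Trim Galore 0.6.6, aligned them with HISAT2 2.2.0 to GRCm39, counted them with HTSeq 0.13.5 on RefSeq transcripts and used edgeR 3.34.0. The strand setting and the treatment of reads shared by transcripts are not given in the sources used here. The deposited table holds raw counts in 16 columns and CPM in 16 columns, and the deposited CPM equal counts over the library total.

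Counts were tested by quasi-likelihood in edgeR 4.0.16 (R 4.3.3), with legacy=TRUE, TMM scaling and Benjamini-Hochberg adjustment. A filter kept the 13288 entries that exceeded 1 CPM in 3 or more of the 16 libraries. Diets were compared in a fit of all 16 libraries by group. Depots, and the difference of the diet response, were compared with the mouse as a block, since SAT and VAT came from the same mice. Deviations from group means correlated at -0.009 to 0.173 (median 0.0759) in the 8 pairs of libraries from 1 mouse, and at -0.154 to 0.121 (median -0.0392) in 24 pairs from different mice. Fold changes on summed counts used 12185 genes, among which an entry without a symbol stood as a gene of its own. No pair of libraries of a group was a copy (lowest chi-square per degree of freedom 7.98). Intervals are ±1.96 standard errors. Limits from a count of 0 use 3 counts and cover counting error only.

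Symbols came from RefSeq identifiers, gene positions from the GENCODE annotation of GRCm39, and promoter letters from RefSeq's GRCm38.p6 table, matched exactly to GRCm39. Members and gene lists were chosen with earlier results of these data known. The genes named are the members, at most 6 called entries per pathway list and comparison with the smallest adjusted p, and the 3 genes most like each tested member in log2(CPM + 0.5). Hsd11b2, Cyp19a1 and the cell type markers were named besides, after their values were seen. Cebpd, Nfkbia and Glul met the rule in other comparisons, and their diet responses in SAT are given besides. Alternatives were RLE size factors, no filter, DESeq2 1.42.0, legacy=FALSE, limma 3.58.1 voom, the 8 libraries of 1 depot, counts summed per gene, a replicate block or no block, each mouse left out and, chosen after seeing the data, no VAT libraries of lean and obese mouse 1. Before use on the deposited counts, the edgeR code was checked on simulated counts, and no value given comes from them. Tables and figures used Python 3.11.15. One gene of the pathway lists is not reported here.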

Additional observations from a re-analysis of the deposited data

Results flagged for a closer look

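For 7 of the members, 28 groups of 4 libraries were searched for a library far from the other 3, and about 1 in 20 such groups would be picked out by chance. There were 3. Tsc22d3 was at 5.16 CPM in VAT of obese mouse 2. Zbtb16 was at 7.32 CPM in VAT of lean mouse 1 and at 14.5 CPM in VAT of obese mouse 1, and these 2 libraries had the fewest counts of all. In SAT, obese mouse 1 also had the highest Zbtb16 level of its group (4.80 CPM from 63 counts), and lean mouse 1 did not (1.496 CPM from 18 counts). The part of depth in the values of Zbtb16 was not tested.

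The diet response differed between the depots, by a test of the difference with the mouse as a block, for Fkbp5 NM_010220 (0.69, larger in VAT), Sgk1 NM_011361 (-1.34, smaller in VAT) and Hsd17b12 NM_019657 (-0.95, a rise in SAT alone by the test). With no block and under limma voom the calls for Fkbp5 and Sgk1 were lost. The cause of these differences was not tested.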

How the results depend on the processing

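Of the 13 member values that passed the test, 4 passed under every alternative run: the rises of Sgk1 NM_011361 and NM_001161850 in SAT, the rise of Fkbp5 in VAT and the lower level of Sgk1 NM_011361 in VAT of obese mice. No called member value changed sign. The count of member entries called in SAT, 4, was 1 with counts summed per gene, where 7 genes took the place of 14 entries, and 2 to 4 with 1 mouse left out. In VAT, 4 became 2 with summed counts, 1 with the 8 VAT libraries alone and 1 to 4 with 1 mouse left out. For the difference between depots, 2 became 1 with no filter on low counts, 0 under limma voom and 1 to 2 with 1 mouse left out. For VAT against SAT in lean mice, 0 became 2 with legacy=FALSE, 1 under limma voom, 1 without the VAT libraries of lean and obese mouse 1 and 0 to 1 with 1 mouse left out. In obese mice, 3 became 5 with legacy=FALSE and 2 to 3 with 1 mouse left out. The uncalled Sgk1 NM_001161849 had a depot difference of 0.17 in obese mice and that of the summed gene, most of it from NM_011361, was -0.95.

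Replicate numbers of lean and obese mice name different mice. Lean and obese libraries of the same number had correlations of deviations of -0.09 to 0.05 in SAT and 0.08 to 0.17 in VAT. The VAT values were all positive and lay within the range of the pairs from 1 mouse (-0.009 to 0.173). What VAT libraries of the same number share was not tested. With the numbers as a replicate block, 4 member entries were called in SAT and 4 in VAT, as without it. With no replicate block for the mouse, the calls for the difference between depots fell from 2 to 0, those in lean mice went from 0 to 1 and those in obese mice from 3 to 2. The causes were not tested.

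In the shallowest library, VAT of lean mouse 1, 1 count equals 0.796 CPM. Hsd11b1, Nr3c1 and Esr1 had 0, 3 and 0 counts there, too few to place that library against others. The levels, counts of mice and fits given above still include it.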
